A study of Caenorhabditis elegans with 2 samples.

Results

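The 10 genes described here act in insulin signalling and in the response to starvation of the nematode Caenorhabditis elegans: ins-39, daf-2, age-1, daf-18, akt-1, akt-2, daf-16, aak-2, hlh-30 and skn-1. They are 10 of 19973 protein-coding genes on the nuclear chromosomes. The genes were picked by name for their roles in larval arrest and survival without food, with earlier results of these data known. Their peaks were selected on measured values, namely the summit positions in the deposited lists. A peak was given to a gene when its summit lay inside the gene or in a start window, which ran from 1000 bp before any annotated transcript start to 200 bp after it. All values below describe the genes and none was tested, because the choice used the same lists.

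The lists come from chromatin immunoprecipitation and sequencing (ChIP-seq) of CEH-82, a homeodomain protein also called F45C12.2, with a GFP-FLAG tag at its C terminus, in whole L1 larvae of mixed sex. There was 1 group, from the single transgenic strain OP212 with the genotype unc-119(ed3) III; ddEx58, and 2 biological replicates. The name ddEx58 has the form used for extrachromosomal arrays, which can be lost from cells and can carry several gene copies, while the labels call the line stable and an insertion; the level and the cells with tagged protein need not match those of the native gene. The labels give neither the age nor the feeding state of the larvae, so no statement on starvation can be made from these libraries. Whole animals were used, so binding cannot be assigned to a tissue. Signal is the authors' score for a peak and is compared only within a list; the thresholded list, which the authors filtered for reproducibility, held the 2052 strongest of the 30000 peaks of the relaxed list from pooled replicates. The pooled relaxed list is deposited as peaks and background, so an entry in it need not be a bound site. Replicates 1 and 2 had relaxed lists of 16551 and 30000 peaks. A thresholded peak need not be listed in both: 94.3% of the 2052 overlapped a peak of replicate 1 and 99.95% a peak of replicate 2. Read depth is unknown here, and with 2 replicates no error on a single peak's signal is given beyond the values in each replicate.

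In worms the insulin receptor DAF-2 signals through the phosphatidylinositol 3-kinase AGE-1 to the kinases AKT-1 and AKT-2, which keep the FOXO transcription factor DAF-16 out of the nucleus, and the phosphatase DAF-18 opposes AGE-1. Larvae that hatch without food stop at the L1 stage, and daf-16 and daf-18 are known to be needed for this arrest and for survival through it. AMP-activated kinase, the TFEB-type factor HLH-30 and the Nrf-type factor SKN-1 act in energy sensing, lysosomal and autophagy gene expression, and stress defence.

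Thresholded peaks were found at 6 of the 10 genes. These were ins-39, daf-2, daf-16, aak-2, hlh-30 and skn-1, with 12 peaks in all, while age-1, daf-18, akt-1 and akt-2 had none. With the 2052 strongest peaks of replicate 2 alone daf-2 had none and the count was 5, and with those of replicate 1 alone daf-18 had one and the count was 7. Of all protein-coding genes 10.9% had a thresholded peak by the same rule. With start windows only, 4 of the 10 genes had one (ins-39, daf-16, aak-2 and hlh-30), against 9.91% of all. Gene length enters this count: 27.8% of the 198 genes of at least 20000 bp had a thresholded peak, against 8.28% of those below 2000 bp, and daf-2, daf-16 and hlh-30 are all in the longest class. Within start windows the share in the longest class was 16.7%. With only the peaks above the median signal of the thresholded list, 3 genes remained in the count (ins-39, aak-2 and hlh-30). The share of all genes is not given at this setting or for single replicates, so those counts are not comparable with 10.9%.

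**Figure D1:**
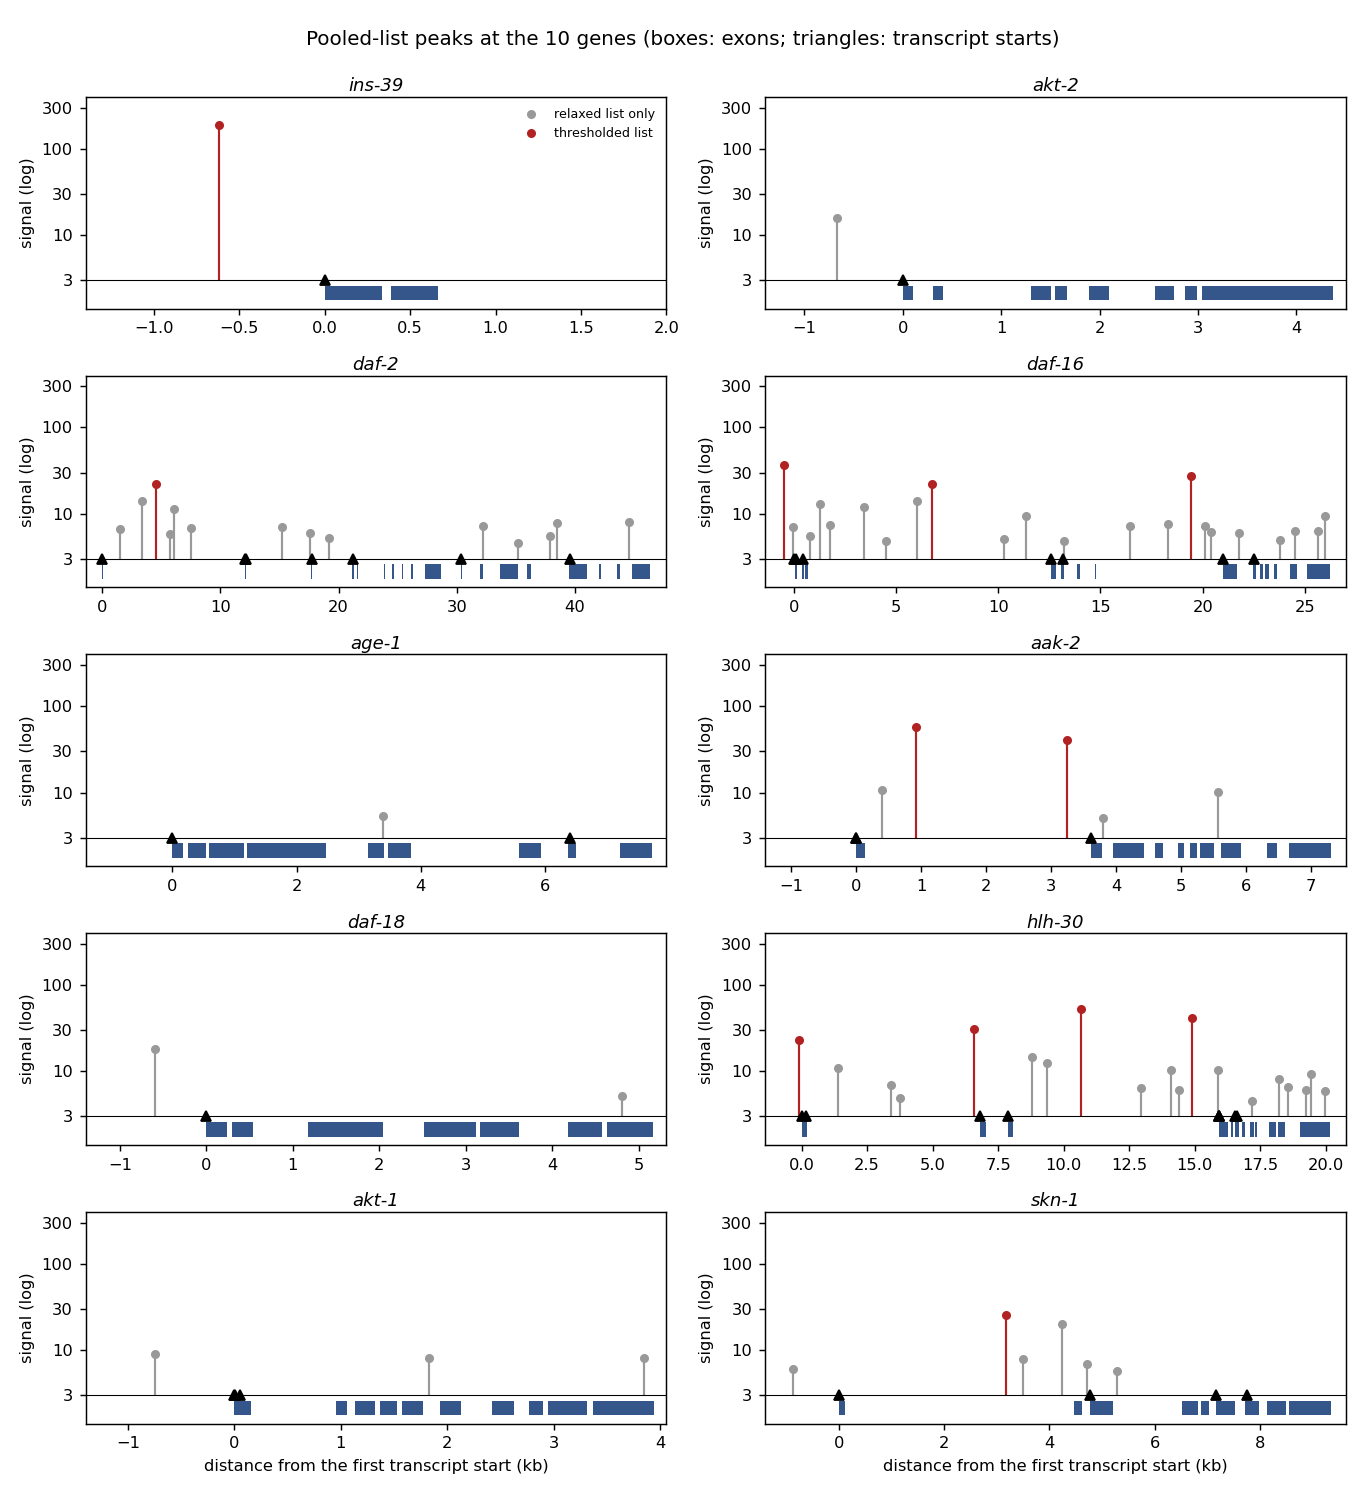
Signal of every peak of the pooled list at each gene (log axis, the authors' score) against distance from the first transcript start in kb, in the direction of transcription, with exons as boxes and transcript starts as triangles. The red points are the 12 thresholded peaks and lie upstream of the gene or in introns; age-1, daf-18, akt-1 and akt-2 have grey, relaxed-only peaks.

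The summit base and the 50 bp on each side are shown for 6 peaks, the strongest of ins-39, aak-2, hlh-30, skn-1 and daf-2, and the aak-2 peak nearest an internal start, which lets windows with and without the repeat be compared. Sequences are from the WBcel235 (ce11) RefSeq genome, 5′ to 3′ on the strand of the gene. Capitals mark GAGAGAG or its reverse complement, the only one of 6 searched motifs found in these windows; the ins-39 window and that of the stronger aak-2 peak hold none.
ins-39, upstream (chrX:1344992-1345092, minus strand): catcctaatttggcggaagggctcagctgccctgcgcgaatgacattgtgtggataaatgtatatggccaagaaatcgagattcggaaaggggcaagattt
aak-2, intron (chrX:16796958-16797058, plus strand): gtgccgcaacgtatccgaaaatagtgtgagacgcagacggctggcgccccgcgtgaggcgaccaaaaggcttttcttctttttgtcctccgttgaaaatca
aak-2, intron, near the start of T01C8.1c (chrX:16799276-16799376, plus strand): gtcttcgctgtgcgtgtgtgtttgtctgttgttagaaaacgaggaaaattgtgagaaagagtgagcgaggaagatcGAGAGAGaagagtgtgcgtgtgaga
hlh-30, intron (chrIV:4024255-4024355, minus strand): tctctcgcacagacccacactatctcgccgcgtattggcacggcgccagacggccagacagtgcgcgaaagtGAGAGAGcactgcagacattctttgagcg
skn-1, intron (chrIV:5657162-5657262, minus strand): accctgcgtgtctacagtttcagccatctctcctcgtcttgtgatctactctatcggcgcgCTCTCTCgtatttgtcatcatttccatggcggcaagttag
daf-2, intron (chrIII:3036204-3036304, minus strand): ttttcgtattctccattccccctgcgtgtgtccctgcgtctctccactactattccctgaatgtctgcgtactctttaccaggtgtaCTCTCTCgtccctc

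The ligand gene ins-39, which encodes an insulin-like peptide (WBGene00017668, chrX:1343758-1344421, minus strand), had by far the strongest peak of the 10. Its summit at position 1345042 was 621 bp upstream of the only annotated start, outside the gene, and its signal of 189 ranked 25 of 2052. The peak ranked 22 in replicate 1, with a signal of 44.3, and 28 in replicate 2, with a signal of 143. Both replicates thus placed it in the first 30 peaks, with summits 14 bp apart or less from the pooled one. Only 0.16% of protein-coding genes had a stronger peak. No other gene had the summit in its window or span, and the nearest other protein-coding start, that of ttr-37, was 7867 bp away. With a start window of 500 bp the peak fell outside. Of the 38 other insulin-like peptide genes matched by name, 0 had a thresholded peak, against 10.9% of all protein-coding genes. For genes below 2000 bp, the class of ins-39, the share was 8.28%, and the lengths of the 38 were not compared. A relaxed peak in both replicates was found at 5 of the 38, against 36% of all protein-coding genes, a share not split by gene length. Because ins-39 was set apart from this list with earlier results of these data known, its contrast with the others is a description only.

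The receptor gene daf-2 (WBGene00000898, chrIII:2994514-3040846, minus strand) had 1 thresholded peak, at the edge of the list. Its summit at 3036254 lay in an intron of 11981 bp of transcript Y55D5A.5c.1, 4592 bp downstream of the first start, with a signal of 22.35 and rank 2049 of 2052, where the lowest signal of the list was 22.34. The overlapping peak ranked 1560 in replicate 1 (signal 7.04) and 2811 in replicate 2 (signal 12.8). The peak was thus among the 2052 strongest of replicate 1 and outside them in replicate 2. The noncoding gene linc-143 contains the summit as well. The span of daf-2, 46333 bp, held 14 peaks of the pooled list, of which 1 was in a start window, 146 bp upstream of an internal start, with rank 16420 of 30000.

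The kinase and phosphatase genes downstream of the receptor had relaxed peaks only. For daf-18, which encodes the phosphatase (WBGene00000913, chrIV:420011-425177, minus strand), the stronger of 2 pooled summits was 599 bp upstream of the start. It had a pooled signal of 18.3 and rank 2480, and ranked 1899 of 16551 in replicate 1 (signal 6.07) and 2746 of 30000 in replicate 2 (signal 13.1). This peak lies between divergent genes, since the start of garr-1 on the other strand was 392 bp away. For akt-2 (WBGene00000103, chrX:14147700-14152070, plus strand) the summit was 665 bp upstream, with a signal of 15.5 and rank 2897, and ranks of 2628 in replicate 1 (signal 5.0, summit 141 bp from the pooled one) and 2264 in replicate 2 (signal 15.8). For akt-1 (WBGene00000102, chrV:10248905-10252845, plus strand) the strongest peak was 750 bp upstream, with a signal of 9.06 and rank 6378; it ranked 5615 in replicate 2 (signal 8.0), and no peak of replicate 1 overlapped it. The noncoding gene C12D8.25 shares the strongest akt-1 peak, with its start 898 bp away. Replicate 1 had a start-window peak of its own at akt-1, 297 bp upstream, with a signal of 3.72 and rank 4842. The gene age-1 (WBGene00000090, chrII:11519328-11527054, minus strand) had the weakest value of the 10, a single peak in a coding exon with a signal of 5.33 and rank 21388; it had a rank of 20404 in replicate 2 (signal 4.56), and replicate 1 listed no peak at age-1. Both AKT genes and daf-18 thus had a peak upstream in the pooled list, and age-1 had none in a start window.

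The FOXO gene daf-16 (WBGene00000912, chromosome I from 10750498 to 10776703, 26206 bp, plus strand) had 3 thresholded peaks spread over its length. Its 11 annotated transcripts begin at 7 sites, and alternative promoters of the gene are known to give isoforms that differ at the N terminus. The strongest peak, with a signal of 36.6 and rank 1156, was 470 bp upstream of the first start, and it ranked 964 in replicate 1 (signal 10.1) and 1319 in replicate 2 (signal 25.6). The next, with a signal of 27.2 and rank 1662, lay in an intron of 7676 bp, 1563 bp upstream of the start of transcript R13H8.1a.1. It ranked 1066 in replicate 2 (signal 29.9), and the overlapping peak of replicate 1 ranked 3261 (signal 4.46) with its summit 152 bp away. The last, with a signal of 22.43 and rank 2045, lay in an intron of 12401 bp, 5841 bp upstream of the start shared by R13H8.1b.1 and R13H8.1c.1, and it ranked 1772 in replicate 2 (signal 20.1) while no peak of replicate 1 overlapped it. Replicate 1 therefore had the upstream peak among its 2052 strongest and neither intron peak. The noncoding genes H36N01.1 and H36N01.4 share the first peak, with starts within 126 bp of its summit, and R13H8.4 shares the last. In all the pooled list held 22 peaks at daf-16.

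The kinase gene aak-2, which encodes a catalytic subunit of AMP-activated kinase (WBGene00020142, chrX:16796087-16803398, plus strand), had 2 thresholded peaks in 1 intron of 3475 bp. The stronger, with a signal of 58.0 and rank 552, was 919 bp downstream of the nearest start, and ranked 701 in replicate 1 (signal 12.3) and 556 in replicate 2 (signal 45.5). The other, with a signal of 41.0 and rank 976, was 381 bp upstream of the start of the shorter transcript T01C8.1c.1 and ranked 1236 in replicate 1 (signal 8.41) and 967 in replicate 2 (signal 32.5). Both peaks were among the 2052 strongest in each replicate. The noncoding gene T01C8.9 shares the stronger peak, and the start of got-1.2, the nearest other protein-coding one, was 3882 bp away.

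The gene hlh-30, for the TFEB-type bHLH factor (WBGene00020930, chrIV:4014793-4034951, minus strand), had the most thresholded peaks of the 10, with 4. In the direction of transcription they lay 116 bp upstream of the first start, 231 bp upstream of the start of W02C12.3b.1 and W02C12.3c.1, in an intron of 8295 bp, and in the same intron 1022 bp upstream of the start of W02C12.3f.1. Their signals in that order were 23.3, 30.8, 52.2 and 41.5. The strongest, 2758 bp from the nearest start and outside every start window, ranked 671 in the pooled list, 974 in replicate 1 (signal 10.01) and 631 in replicate 2 (signal 42.0). The peak in second place ranked 962, with 3198 in replicate 1 (signal 4.51) and 1021 in replicate 2 (signal 31.04). The peak upstream of W02C12.3b.1 ranked 1437, with 5476 in replicate 1 (signal 3.53) and 1359 in replicate 2 (signal 25.11), and the peak at the first start ranked 1945, with 2588 in replicate 1 (signal 5.04) and 2113 in replicate 2 (signal 17.0). Only the strongest of the 4 was among the 2052 strongest in both replicates, and the other three were outside them in replicate 1. The noncoding gene W02C12.4 shares the peak 1022 bp upstream, and F35F11.4 that 231 bp upstream.

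The gene skn-1, for the Nrf-type factor (WBGene00004804, chrIV:5651039-5660384, minus strand), had 1 thresholded peak. It lay in an intron of 4347 bp, 1607 bp upstream of the start of transcript T19E7.2c.1, with a signal of 25.25 and rank 1801, and ranked 1928 in replicate 1 (signal 6.01) and 1803 in replicate 2 (signal 19.7). A further peak 541 bp upstream of the same start had a signal of 20.3 and rank 2258, with ranks of 2637 and 3026 in replicates 1 and 2. That peak is the nearest of the 10 genes' peaks below the threshold, followed by those of daf-18 (18.3) and akt-2 (15.5), while those just inside are the daf-2 peak (22.35) and the third daf-16 peak (22.43). These 3 peaks below the threshold and 1 more at hlh-30 had the highest -log10 q of the pooled list, as had 3214 of its 30000 peaks. The threshold separates the skn-1 peak at 20.3 from the daf-2 peak at 22.35, which differ little in signal. The tie in -log10 q is too widely shared to show likeness, and the akt-2 peak (15.5) lay further below. The noncoding gene T19E7.26 shares the thresholded skn-1 peak.

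**Figure D2:**
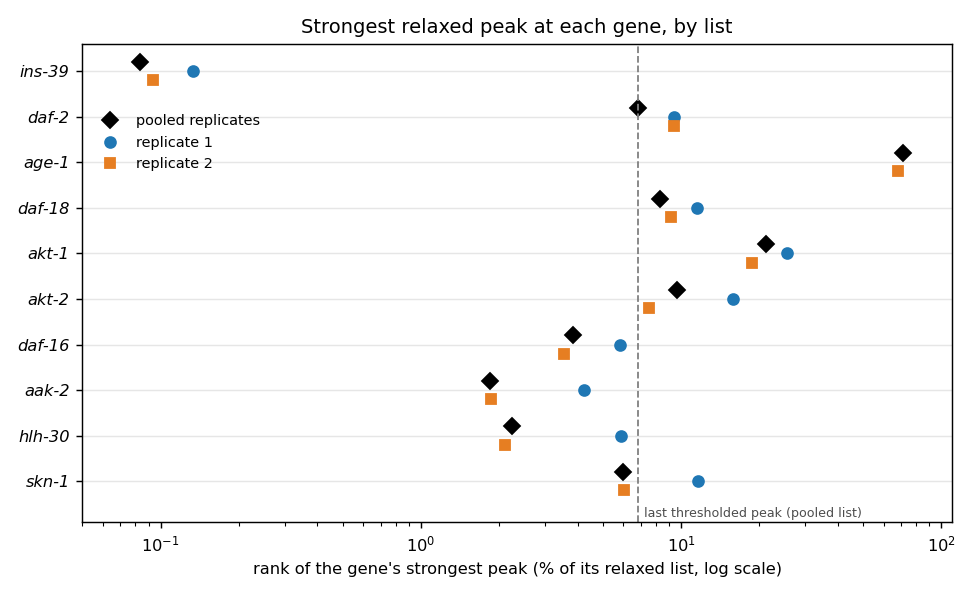
Rank of each gene's strongest peak as a percentage of the relaxed list it comes from (log axis, lower is stronger) for pooled replicates, replicate 1 and replicate 2; the dashed line is the last thresholded peak in the pooled list. The ins-39 values lie between 0.0833% and 0.133%, and age-1 has no replicate 1 value.

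All 10 genes had a peak in the pooled relaxed list, which includes background, as had 60.9% of protein-coding genes. With a -log10 q of at least 1.3, age-1 and akt-1 dropped out and 8 genes remained. The share of all genes at that setting is not given, so the count of 8 has no background beside it. In both replicates 9 of 10 had a relaxed peak, as had 36%. That count needs no shared peak and was not split by gene length. Of the 19973 genes 9856 were below 2000 bp, and of the 10 genes 1 was. The 74 pooled peaks amounted to 5.24 per 10 kb of searched sequence, against 3.03 over all protein-coding genes, and the 12 thresholded peaks to 0.85 per 10 kb against 0.223. The order of the genes by strongest pooled signal was ins-39 (189), aak-2 (58.0), hlh-30 (52.2), daf-16 (36.6), skn-1 (25.25), daf-2 (22.35), daf-18 (18.3), akt-2 (15.5), akt-1 (9.06) and age-1 (5.33). The replicates differed on neighbours in that order: hlh-30 was behind daf-16 in replicate 1 (ranks 974 and 964) and ahead of it in replicate 2 (631 and 1066), akt-2 was ahead of daf-18 and daf-2 in replicate 2 only, and skn-1 was behind daf-2 and daf-18 in replicate 1 only. The positions of ins-39 first, aak-2 in second place, and akt-1 and age-1 last held in both replicates, with age-1 unlisted in replicate 1.

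**Figure D3:**
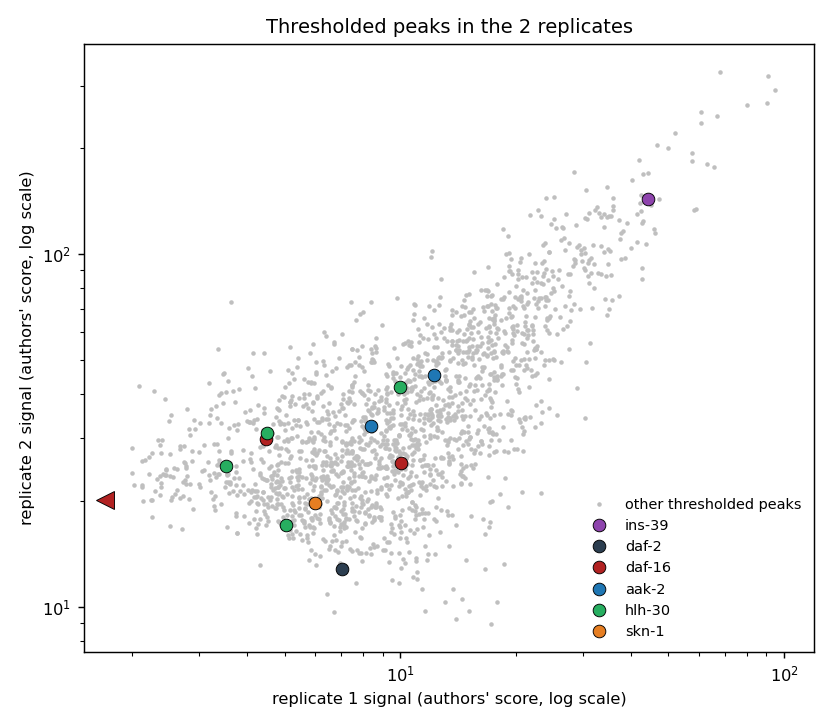
Signal in replicate 1 (x) against replicate 2 (y), both the authors' score on log axes, for the thresholded peaks matched in both replicates (grey) and the 12 peaks at the 10 genes (colours). The triangle at the left edge is the daf-16 peak with no overlapping peak in replicate 1.

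Replicate 2 carried more of these peaks than replicate 1, as it did of all thresholded peaks. In the relaxed lists replicate 2 had a peak overlapping each of the 12 and replicate 1 had one for 11. For all thresholded peaks these shares were 99.95% and 94.3%, and the list of replicate 1 was shorter (16551 peaks against 30000). Of the 12, 10 were among the 2052 strongest of replicate 2 and 7 among those of replicate 1. Over all thresholded peaks the shares were 92.9% and 74.5%. Both conditions were met by 6 of the 12, namely the ins-39 peak, both aak-2 peaks, the upstream daf-16 peak, the strongest hlh-30 peak and the skn-1 peak, and by 68.9% of all thresholded peaks.

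Of the 12 thresholded summits 9 were in introns, 3 lay upstream of the gene, and 0 were in exons. Of all 2052 thresholded summits 386 were in introns of protein-coding genes, 1556 outside every such gene and 110 in exons. Inside the gene and outside its start windows lay 7 of the 12 (58.3%), against 12.3% over all pairs of a protein-coding gene and a thresholded peak. For genes of at least 20000 bp that share was 54.3% over 81 such pairs and 62.5% over the 8 pairs of daf-2, daf-16 and hlh-30, which are among the 81. For genes of at least 5000 bp, which also takes in aak-2 and skn-1, it was 27.5% in all and 63.6% at the 10 genes.

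The rule that gave peaks to genes used no sequence, but the motifs were picked with earlier results of these data known. The share of G and C in windows of 50 bp on each side of the 12 thresholded summits ran from 34.7% to 60.4% with a median of 50.99%, beside a median of 48.5% over the 2052 thresholded and 37.6% over the 27933 pooled peaks that overlap none of these. The lowest value was at the upstream daf-16 peak, with 1.17% of thresholded summits lower, and the highest at hlh-30, 231 bp upstream of W02C12.3b.1. The homeodomain core pair TAATTA was in 0 of the 12 windows, and in 1.36% of thresholded and 4.15% of the other pooled windows. A TAAT palindrome with a spacer, the E-box CACGTG and the GATA site TGATAA were also in 0 of the 12, and in 0.195%, 3.31% and 1.754% of thresholded and 0.39%, 2.06% and 8.83% of the other pooled windows. With shares this low, 0 of 12 is close to the background. The DAF-16 site GTAAACA was in 1, the upstream peak of daf-16 itself, and in 1.66% of thresholded windows. All motifs were searched on both strands, and the TAAT motifs can overlap each other.

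The repeat GAGAGAG, read on either strand and shown in capitals in the sequences above, was in 7 of the 12 windows and in 15.2% of all thresholded and 3.42% of the other pooled windows. All 7 were among the 9 intron summits, at daf-2, daf-16, aak-2, hlh-30 (3 peaks) and skn-1, and 0 were among the 3 upstream summits. Over all 386 thresholded summits in introns of protein-coding genes, 18.9% had the repeat. Its centre lay 14 to 93 bp from the 9 intron summits, so the count changed with the window. With 25 bp on each side it was 1 of 9, and 9.07% of all intron summits, and with 100 bp on each side it was 9 of 9, and 30.3%. Both other windows were chosen after seeing the data. The 9 summits come from 5 genes and are not independent of each other.

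**Figure D4:**
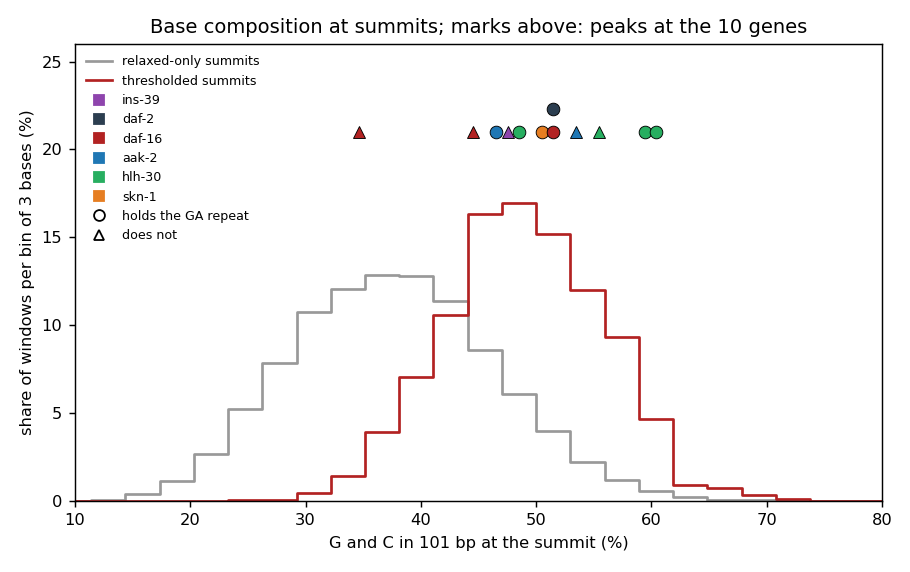
Share of summit windows, 50 bp on each side (y, %) by their G and C content (x, %) for thresholded and relaxed-only peaks, with the 12 thresholded peaks of the 10 genes marked above at their own G and C content (height has no meaning). Marks lie from 34.7% to 60.4%, and circles mark the 7 windows with the GA repeat.

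Other genes of the same and neighbouring pathways, in 8 lists made by hand, had thresholded peaks in uneven shares. By start window or gene body the share of all protein-coding genes was 10.9%, and the lists were not split by gene length. In the insulin pathway list 4 of 17 genes had one (3 in start windows): ftt-2 (signal 55.5) and par-5 (53.7, shared with M117.3), the 14-3-3 proteins that hold phosphorylated DAF-16 in the cytoplasm, prmt-1 (41.1, shared with cdkr-3), an arginine methyltransferase known to act on DAF-16, and pdk-1 (52.5), the kinase upstream of AKT, in its gene body 1891 bp from a start. Among classical DAF-16 target genes it was 0 of 11, among them sod-3 and mtl-1. Of 14 genes for AMP-activated kinase subunits, its upstream kinase complex and its CREB-type effectors, 5 had a peak, 3 of them in start windows: crh-1 (48.3), aakg-5 (45.6) and aakb-2 (25.6, shared with Y47D3A.14). The aakg-5 and aakb-2 peaks overlapped no peak of replicate 1.

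In the TOR list 4 of 13 genes had a thresholded peak, with rheb-1 (62.1, shared with spk-1), rict-1 (48.1, shared with gfm-1) and flcn-1 (24.4) in start windows and let-363, the TOR kinase gene, in its gene body. In the autophagy and lysosome list it was 6 of 26, all in start windows, led by lgg-2 (119, 295 bp upstream) and lgg-1 (80.3, 876 bp upstream), the ATG8 family genes, then atg-18 (37.1), atg-9 (36.05) and atg-3 (30.5, shared with Y55F3AM.9). The lgg-2 peak ranked 115 of 2052 and 127 and 121 in replicates 1 and 2, while atg-9 ranked 8282 in replicate 1. Of 12 regulators and targets of SKN-1 only wdr-23 had one (37.0, 221 bp upstream), which encodes the protein that targets SKN-1 for degradation. Of 19 dauer and L1 arrest genes 5 had one, of which lin-14 (45.3) and lin-28 (35.9), heterochronic genes, were in start windows. With start windows only, the 8 lists had from 0% (insulin-like peptides and DAF-16 targets) to 23.1% (TOR, autophagy and lysosome), around the 9.91% of all protein-coding genes.

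**Figure D5:**
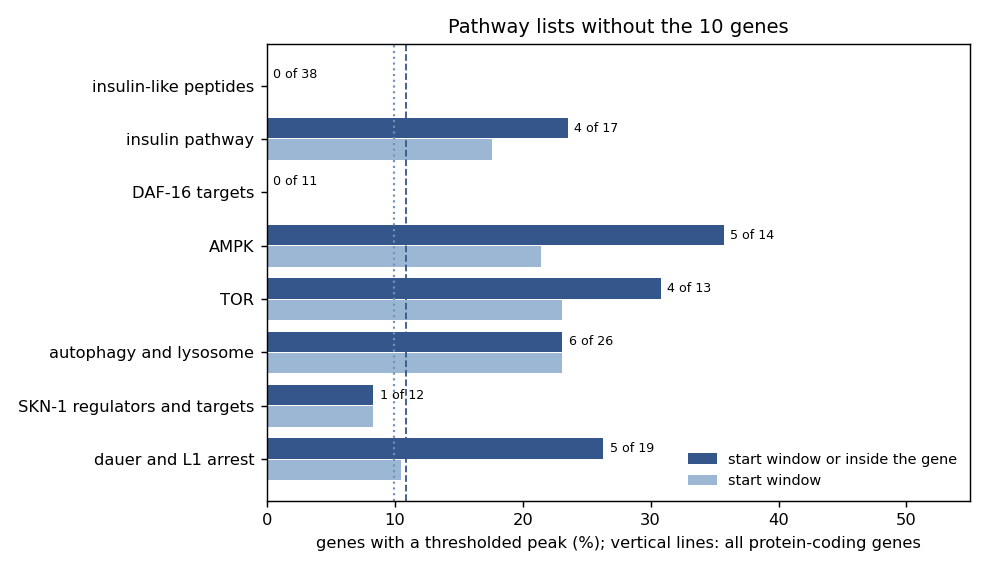
Percentage of genes with a thresholded peak in 8 lists of related genes that exclude the 10 genes, by start window or gene body (dark bars) and by start window only (light bars), with counts at the dark bars. The vertical lines are all protein-coding genes (10.9% dashed, 9.91% dotted); AMPK genes are highest at 35.7% and the insulin-like peptide and DAF-16 target lists are at 0.

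For the 4 genes with a thresholded peak in a start window, the genes most like them were found by summing the differences of log10 rank in the pooled, replicate 1 and replicate 2 lists, over 4094 genes with a start-window peak in all 3. For ins-39 they were the histone gene his-37 (sum 0.145, ranks 24, 17 and 27) and fust-1 (0.211), and for daf-16 they were mig-22 and mtss-1 (0.0387 each), which share 1 peak. For aak-2 they were F33H2.3 (0.0179) and snpn-1 (0.0335), and for hlh-30, whose best start-window peak differed between replicates, rfc-2 (0.0356) and nhr-32 (0.0444).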

How the data were processed

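ChIP-seq peak lists on ce11 were used: a relaxed list for each of 2 replicates, a relaxed list of the pooled replicates and a thresholded list, with groups and replicate numbers from the labels. Per the file headers, the authors made the thresholded list from these relaxed lists by irreproducible discovery rate, and each relaxed list from alignments and a further input file. No aligner or peak caller is named, and their versions were also not given in the sources used here. Here the deposited signal is the authors' peak score, and the deposited -log10 q values were used for 1 alternative. Read depth is unknown.

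Summits (counted from 1) were assigned to transcript starts and genes of Ensembl release 115 (WBcel235), with Python 3.11.15, NumPy 2.4.6, pandas 2.3.3 and matplotlib 3.10.9. Assignment and motif search, checked on planted positions, recovered 400 of 400 summits and 200 of 200 motifs. Replicate peaks were matched by an overlap of at least 1 bp, and the strongest was taken. No test was run, and nothing was pooled over groups. The members, lists and motifs were chosen with earlier results of these data known. Named genes were the 10, genes sharing the peaks described, up to 5 genes per pathway list by start-window signal and the 2 most alike genes. Added after their values were seen were pdk-1, let-363, daf-5, daf-14, daf-12, sod-3, mtl-1, ttr-37 and got-1.2. Of the names in the pathway lists, ins-38 and dod-8 were not matched. Lists on ce10 were not used.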

Additional observations from a re-analysis of the deposited data

How the results depend on the processing

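With only thresholded peaks above the median signal, 3 of the 10 genes had a peak in place of 6, and 2 in place of 4 in start windows. When 1 replicate was left out, by using the 2052 strongest peaks of the other, the counts were 5 to 7 for start window or gene body and 4 to 4 for start windows: without replicate 1 daf-2 left, without replicate 2 daf-18 entered, and in start windows hlh-30 left as well. For the pooled relaxed list the range was 9 to 10. A start window of 500 bp removed ins-39, since its summit is 621 bp upstream, and left 8 genes in the pooled list and 6 in both replicates, and one of 2000 bp added skn-1 to the start-window count. Counting any overlap of the interval changed none of the 4 counts. A -log10 q of at least 1.3 left 8 genes in the pooled list, without age-1 and akt-1, and 9 in both replicates. Shares of all protein-coding genes at these other settings are not given, so their counts have no background beside them. No paired analysis was possible because there is 1 group. Unknown depth limits all absent peaks: a gene with no listed peak may have one below the lists.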
